A study of Homo sapiens with 4 samples.

Results

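The long arm of human chromosome 14 was examined as 1 region class of an enrichment sequencing experiment in FADU (FaDu) cells, an established epithelial line of a hypopharyngeal squamous carcinoma. The members were the 500 bp windows of chromosome 14 that the deposited hg19 window table lists, outside the T cell receptor alpha and delta locus, the imprinted DLK1-MEG3 locus and the immunoglobulin heavy chain locus. There were 53523 such windows among the 956365 windows of the whole table. The chromosome was selected on these same positions, as the autosome with the highest share of listed windows for its sequence composition, so its overall density is given as a description and was not tested.

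The table was made from 4 genomic DNA libraries, all of FADU cells and 1 for each group. The groups were a scrambled control kept for 18 h in 1% O2 (hypoxia), TET1-si cells in which TET1 was knocked down kept for 19 h in 1% O2, and the scrambled control and TET1-si cells under normoxia. The libraries were titled hMeDIP-seq, an assay for 5-hydroxymethylcytosine, while the labels describe immunoprecipitation with an antibody to 5-methylcytidine and the study's methods describe chemical labelling of 5-hydroxymethylcytosine. Which modified base the windows carry therefore cannot be told from these sources. The 4 columns of read values match no sample label, so no value was assigned to hypoxia, normoxia or the knockdown, and no effect of either could be examined. A window is called listed when the table holds it, for the 4 libraries together. No input library was among the 4 samples. Listing was thus not corrected for DNA copy number, and the part of copy number in any difference below was not tested.

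TET1 oxidises 5-methylcytosine to 5-hydroxymethylcytosine, a mark that in many cell types lies in gene bodies, at enhancers and beside promoters, and that is usually low at the start sites of CpG islands. 5-Methylcytosine itself covers most CpG sites outside such islands. Chromosome 14 is acrocentric: its short arm holds ribosomal RNA genes and repeats and is not in the assembly, so all windows are on the long arm. The chromosome carries HIF1A, the oxygen-regulated subunit of the transcription factor HIF-1, and EGLN3, a prolyl hydroxylase that marks HIF-alpha proteins for degradation when oxygen is present.

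Sequences are shown to place the windows, read from GRCh37 (hg19) in the plus direction, with each CpG site in capitals. The first is the HIF1A promoter, the 300 bases up to the start of its canonical transcript at chr14:62161931-62162230, with 36 CpG sites. It overlaps the antisense gene HIF1A-AS1. The core of the hypoxia response element, searched as ACGTG or GCGTG on both strands, gave 3 matches in it. Its CACGTG reads the same on both strands and was counted on each, so the matches are not all separate sites. Of the protein-coding promoters of the same length on the chromosome, 340 of 610 (55.7%) held at least 1 match.
HIF1A promoter: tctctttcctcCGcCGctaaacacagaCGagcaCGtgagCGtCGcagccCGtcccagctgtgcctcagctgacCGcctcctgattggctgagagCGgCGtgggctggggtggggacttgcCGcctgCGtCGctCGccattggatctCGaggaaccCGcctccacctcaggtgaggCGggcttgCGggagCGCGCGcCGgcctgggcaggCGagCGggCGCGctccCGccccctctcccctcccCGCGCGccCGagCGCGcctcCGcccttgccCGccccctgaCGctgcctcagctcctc
The next pair shows what is inside the longest run of listed windows, in an intron of ITPK1 at chr14:93454651-93454850, and inside the longest stretch without a listed window, in non-unique DNA near the centromere at chr14:19287151-19287350. Each is the middle 200 bases of the middle window, with 6 and 3 CpG sites.
ITPK1 intron, listed: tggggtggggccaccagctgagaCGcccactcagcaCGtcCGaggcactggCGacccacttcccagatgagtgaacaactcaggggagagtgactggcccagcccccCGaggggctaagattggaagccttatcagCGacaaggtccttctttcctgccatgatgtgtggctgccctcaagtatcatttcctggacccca
Centromere side, unlisted: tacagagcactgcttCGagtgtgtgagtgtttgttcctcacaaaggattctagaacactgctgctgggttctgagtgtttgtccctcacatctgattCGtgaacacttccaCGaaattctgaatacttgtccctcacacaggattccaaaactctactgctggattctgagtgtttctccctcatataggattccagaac
Another pair was chosen after the values were seen, to show the 2 sides of a sharp fall in listing at 97.5 Mb. These are the last listed window with 10 CpG sites before it, with its middle 200 bases at chr14:97490151-97490350, and the first unlisted window with 10 CpG sites after it, at chr14:97502651-97502850. Neither lies in an annotated gene.
Before the fall, listed: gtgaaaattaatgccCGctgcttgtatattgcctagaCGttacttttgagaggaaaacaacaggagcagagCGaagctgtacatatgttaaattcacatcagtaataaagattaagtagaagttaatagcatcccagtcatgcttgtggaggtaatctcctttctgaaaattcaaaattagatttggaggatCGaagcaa
After the fall, unlisted: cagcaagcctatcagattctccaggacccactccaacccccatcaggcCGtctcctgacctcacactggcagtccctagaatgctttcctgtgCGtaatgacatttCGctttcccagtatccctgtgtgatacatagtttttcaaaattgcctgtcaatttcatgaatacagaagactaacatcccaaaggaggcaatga
The last sequence, also chosen after the values were seen, shows that a window without any CpG site could be listed. It is from the first such window of FOXN3, a gene that encodes a forkhead repressor (chr14:89613151-89613350).
FOXN3, listed: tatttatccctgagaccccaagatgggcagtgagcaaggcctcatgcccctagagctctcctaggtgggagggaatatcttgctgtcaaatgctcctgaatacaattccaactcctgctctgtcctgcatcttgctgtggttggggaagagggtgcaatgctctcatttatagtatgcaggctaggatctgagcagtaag
The promoter of EGLN3 and the windows richest in CpG overlap annotated UTRs and are not shown. The richest listed window held 84 CpG sites in CCDC85C and the richest unlisted one 98 in TRAF3.

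Of the 171100 windows of chromosome 14 without an undetermined base, 31.3% were listed (95% Wilson interval 31.1% to 31.5%). On the other autosomes together 17.1% were. Since listing varies with CpG and GC content, each window was given a predicted share. This was the share listed among autosomal windows alike in CpG number and GC class. The ratio of listed to predicted windows was 1.83 on chromosome 14. It was 1.35 on chromosome 22, 1.30 on chromosome 8 and 0.537 on chromosome 4, the lowest autosome. By raw share, without the prediction, chromosome 22 (43.3%), chromosome 17 (33.9%) and chromosome 16 (32.1%) stood above chromosome 14, and chromosome 19 (31.3%) beside it. The first place of chromosome 14 thus held for the ratio only. Intervals here and below treat windows as independent draws. Neighbouring windows are not independent, so the intervals cover counting error only and are too narrow.

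The windows were unevenly spread along the arm, and the middle of the chromosome held most of them. Between 49.6 and 97.5 Mb, bounds taken from steps in the profile after the values were seen, 39519 of 95800 windows were listed (41.3%), at a ratio of 2.38. This segment held 56.0% of the windows examined and 73.8% of those listed. In the proximal segment before 49.6 Mb, 7875 of 59320 windows were listed (13.3%), with a ratio of 1.06. In the distal segment after 97.5 Mb the share was 38.4%, but the windows there were rich in CpG, with 8.81 sites on average against 4.76 in the middle segment, and the ratio was 1.19. The proximal and distal segments therefore lay nearer to the level of the other autosomes (0.974), while 45 of 47 regions of 1 Mb in the middle segment had a ratio above 1.

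**Figure D1:**
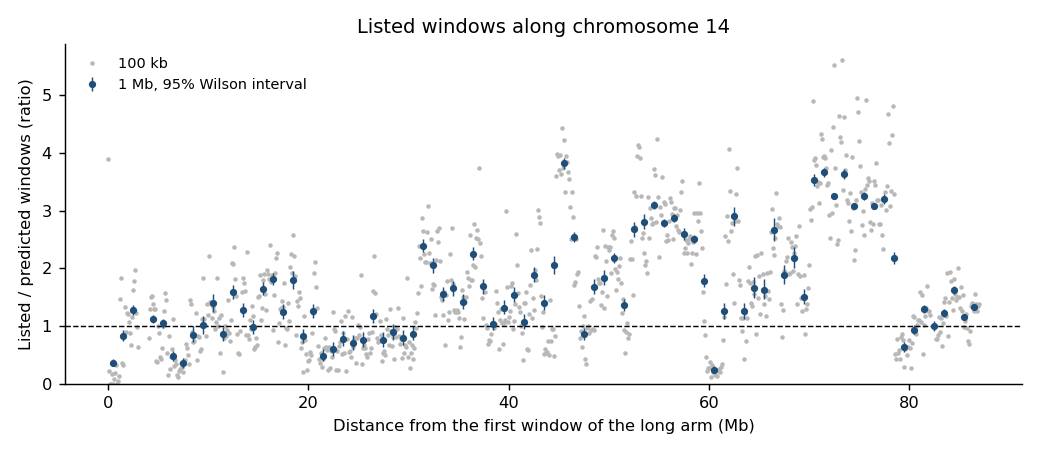
The ratio of listed to predicted windows (y axis, no unit) along the long arm of chromosome 14, against the distance from its first window in Mb (x axis). Blue points are 1 Mb regions with 95% Wilson intervals, grey points are 100 kb bins, and the dashed line is a ratio of 1. The 1 Mb regions run from 0.233 to 3.83.

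Over 86 regions of 1 Mb the median ratio was 1.47. Of these, 64 (74.4%) lay above 1, against 35.3% of 2626 regions on the other autosomes. A ratio above 3 was reached by 10 regions (11.6%), against 0.647% elsewhere. The lowest region, 79 to 80 Mb inside NRXN3, had 54 of 2000 windows listed, and the highest, 64 to 65 Mb with SYNE2 and ESR2, had 1490 of 2000. Across the 86 regions, log2 of the ratio had a Pearson correlation of 0.333 with the mean CpG number and 0.383 with GC content (Spearman 0.515 and 0.470). Neighbouring regions share their surroundings, so these are descriptions.

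Part of the listed windows lay in long dense stretches. A stretch was counted where 5 or more consecutive bins of 100 kb each had a ratio of 3 or more. Chromosome 14 had 8 such stretches, and the other 21 autosomes together had 12, of which 6 were on chromosome 8. With all 8 left out, an alternative chosen after seeing the data, the ratio of chromosome 14 was 1.62. The first ran from 63.7 to 65.2 Mb, with 2196 of 3000 windows listed (73.2%) where 19.6% was predicted. It holds SYNE2, which encodes a nesprin that ties the nucleus to the cytoskeleton, ESR2, the gene of oestrogen receptor beta, SGPP1, a sphingosine-1-phosphate phosphatase, and PPP2R5E, a regulatory subunit of protein phosphatase 2A. SYNE2 had 657 of 929 windows listed (ratio 3.89), ESR2 376 of 508 (3.75), SGPP1 57 of 88 (3.96) and PPP2R5E 216 of 344 (3.70). All 4 genes lay near the ratio of the stretch itself, 3.73.

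A second stretch, 71.7 to 72.3 Mb, was filled largely by SIPA1L1, a regulator of Rap GTPases, which had 495 of 842 windows listed (ratio 3.94). The other 6 stretches lay between 89.2 and 97.5 Mb. The longest of all, 89.2 to 90.9 Mb, had 2645 of 3400 windows listed (77.8%) where 20.9% was predicted. Its genes include TTC8, a subunit of the BBSome of the cilium, FOXN3, and TDP1, a phosphodiesterase that repairs stalled topoisomerase adducts. TTC8 reached 66 of 114 windows (ratio 5.91), FOXN3 862 of 989 (3.48) and TDP1 131 of 179 (4.12). FOXN3 had the highest share of these in a long gene, 87.2%, but from a higher prediction of 25.1%. A ratio is bounded by the prediction: where 25.1% is predicted it cannot pass 100% over that share.

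Further along, the stretch from 91.9 to 92.9 Mb with ATXN3, a deubiquitinase, and FBLN5, an elastic fibre protein, had 77.8% of windows listed. The stretch from 95.4 to 95.9 Mb around DICER1, the RNase that makes mature microRNAs, had 870 of 1000 (87.0%), the highest share of the 8. The last, from 96.4 to 97.5 Mb with the bradykinin receptor genes BDKRB2 and BDKRB1, the poly(A) polymerase gene PAPOLA and the kinase gene VRK1, had 1752 of 2200 (79.6%). In units of 5 Mb, the region from 90 to 95 Mb was the highest, with 82.7% of windows listed against 24.6% predicted (ratio 3.36).

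Sparse stretches were few. By the same rule with a ratio of 0.5 or less, chromosome 14 had 3 stretches and the other autosomes 544. In bins of 100 kb, 10.3% of those on chromosome 14 were at 0.5 or less against 37.6% elsewhere, and 13.6% were at 3 or more against 1.13%. The share at 3 or more was 8.57% on chromosome 8. The 3 sparse stretches differed in sequence. From 19.1 to 20.2 Mb, beside the centromere, 36 of 2200 windows were listed (1.64%), and only 1.64% of the windows had unique sequence, meaning that 5 sampled sequences of 50 bases, the read length, each occurred once in the genome. Reads were kept by the authors only where they mapped to 1 place, so listing and uniqueness cannot be told apart there. From 25.6 to 26.8 Mb, a segment without a protein-coding gene, 66 of 2400 windows were listed (2.75%) with 85.6% of windows unique. From 78.7 to 80.4 Mb, 108 of 3400 windows were listed (3.18%) with 90.2% unique, and NRXN3, which encodes a synaptic adhesion protein, was its protein-coding gene.

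NRXN3 is the longest gene of the chromosome by annotated span, and it stood apart from its surroundings along nearly all of it. Over 1697.92 kb, 120 of 3396 windows were listed (3.53%) where 12.6% was predicted, a ratio of 0.281 (0.236 to 0.335). The neighbouring gene ADCK1, a mitochondrial kinase, had 179 of 270 windows listed on one side (ratio 2.32). DIO2, the deiodinase that activates thyroid hormone, had 85 of 380 on the other (2.13). The level thus fell and rose again over a stretch somewhat wider than the gene. In bins of 100 kb the ratio fell from 2.35 through 1.60 to 1.10 before the gene starts. It was 0.753 and then 1.17 in bins past its end.

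The edges of the dense and sparse stretches were examined as steps, the fold between the ratios in the 500 kb before and the 500 kb after each 100 kb boundary. Steps of 4-fold or more were found at 5 places. The rise at 20.2 Mb, 7.67-fold, went together with unique sequence, which rose from 0.9% to 67.1% of windows. The other 4 steps lay where unique sequence was abundant on both sides. The ratio rose 7.17-fold at 80.4 Mb, past the end of NRXN3, from 0.262 to 1.88. It fell 5.45-fold at 78.7 Mb, just inside the start of NRXN3, from 1.80 to 0.331. It rose 4.91-fold at 63.7 Mb, within RHOJ, from 0.778 to 3.83.

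The fall at 97.5 Mb, past the end of VRK1, was the sharpest drop of the chromosome. Listed windows made up 78.3% of the 500 kb before it and 11.0% of the 500 kb after it, and the ratio fell 6.53-fold, from 3.66 (3.53 to 3.77) to 0.560 (0.469 to 0.666). Sequence composition hardly differed across it: windows held 5.28 CpG sites on average before and 4.92 after, and 91.8% and 92.1% were unique. DNA copy number on either side was not measured, and the cause of the fall was not tested. Windows poor in CpG, with at most 2 sites, were listed in 52.2% of cases before and 2.79% after. Windows with 3 to 9 sites were listed in 87.1% before and 13.0% after. The pair of windows with 10 CpG sites printed above, one listed and one not, stands on the 2 sides of this fall. Steps of this size were not more frequent on chromosome 14 than elsewhere by count, with 6.01 per 100 Mb against 14.4 on the other autosomes, where the largest was 57.0-fold.

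**Figure D2:**
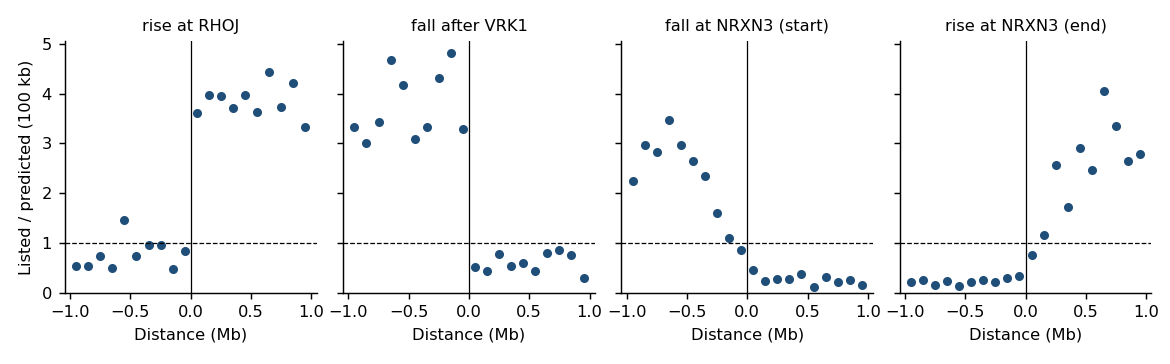
The ratio of listed to predicted windows in bins of 100 kb (y axis) within 1 Mb on either side of 4 steps (x axis, distance from the step in Mb). From left to right are the rise at RHOJ, the fall past VRK1, the fall at the start of NRXN3 and the rise past its end. The fall past VRK1 and the rise at RHOJ are complete within 1 bin, while the level on the outer sides of NRXN3 slopes over about 0.5 Mb.

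The higher listing was found at every CpG density, and it was greatest, relative to prediction, where CpG sites were few. A ratio has more room to rise where the prediction is low. The predicted share on chromosome 14 was 1.85% without a CpG site and 47.5% at 20 to 39 sites. Windows with no CpG site were listed in 4.98% of cases on chromosome 14 and 1.75% on the other autosomes. For 3 to 5 sites the shares were 30.5% and 14.1%, for 10 to 19 sites 65.5% and 45.1%, and for 40 or more 37.5% and 29.1%. The ratio fell from 2.70 without a CpG site to 1.17 at 20 to 39 sites, and was 1.29 at 40 or more. This order was not particular to chromosome 14: over the same classes the ratio fell from 2.34 to 1.23 on chromosome 22 and from 2.09 to 0.883 on chromosome 8. In the longest dense stretch (89.2 to 90.9 Mb) 40 of 129 windows without a CpG site were listed (31.0%), and 392 of 406 windows with 10 to 19 sites (96.6%). In the longest sparse stretch (78.7 to 80.4 Mb) 0 of 250 windows without a CpG site were listed, an upper Wilson limit of 1.51%, and 9 of 86 with 10 to 19 sites (10.5%). The CpG-free listed window of FOXN3 printed above is an example from the dense stretch. A fragment can be longer than a window, as the labels give means of 300 to 1,000 bp after sonication, so a listed window need not hold the modified site itself.

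Promoters were taken as the 3000 bp upstream of the start of each canonical transcript, the definition in the study's methods. Of 610 protein-coding genes on chromosome 14, 537 (88.0%) had at least 1 listed promoter window, against 76.2% of genes on the other autosomes. All 6 windows were listed in 94 genes (15.4% against 7.14%). The window that holds the start site was listed in 202 of 610 genes (33.1%) against 27.2%. Where that window had 20 or more CpG sites the shares were 27.8% and 22.2%. By segment, at least 1 promoter window was listed in 306 of 323 genes in the middle (94.7%), 162 of 214 in the proximal (75.7%) and 69 of 73 in the distal segment (94.5%). The share in the proximal segment was thus close to that of the other autosomes.

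Listing dipped at start sites on chromosome 14 as on the other autosomes. Between 1000 and 500 bp upstream 62.8% of windows were listed, at a ratio of 1.96. In the first 500 bp downstream the share was 33.6% (29.9% to 37.5%) and the ratio 0.979 (0.871 to 1.09), or 1.91 in those 500 bp when set against the share of all autosomes with no prediction. Between 2000 and 2500 bp downstream the ratio was 2.32. On the other autosomes the ratio in the first 500 bp was 0.709. Set against windows more than 5 kb from a start site, the level just downstream was 0.537 of that level on chromosome 14 and 0.756 on the other autosomes. In the middle segment alone the ratio was 2.44 between 1000 and 500 bp upstream and 1.14 just downstream.

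Introns held 63.1% of the listed windows of chromosome 14 and 60.1% of all its windows, so their share was near that of the sequence. Of the listed windows, 4.76% were in other exons, 3.02% in 3' UTRs, 0.624% in 5' UTRs, 5.18% within 5 kb upstream of a gene and 22.4% elsewhere. On the other autosomes 60.9% of listed windows were intronic. The ratio on chromosome 14 was 1.96 in introns, 2.02 in 3' UTRs, 1.68 in other exons, 1.35 in 5' UTRs and 1.58 outside genes and their flanks. On the other autosomes those ratios were 1.03, 1.21, 1.05, 1.02 and 0.794. Windows outside genes on chromosome 14 thus stood further above prediction than intronic windows elsewhere.

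Over the 610 protein-coding genes of the chromosome, 39.9% of windows were listed at a ratio of 2.07. The median gene had a ratio of 1.76 and 493 genes lay above 1. Gene lists are described beside these values. With 1 table for all libraries there was no test between them. List totals are sums over genes, so a window shared by overlapping genes of a list was counted for each gene. Where the share is divided by that of all autosomes, with no prediction, lists with a high predicted share rise: the invasion list to 4.42, developmental factors to 3.34, leucine zipper factors to 3.22 and SERPINA genes to 4.49, while olfactory receptors are at 0.518.

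The oxygen sensing and hypoxia list had 617 of 1791 windows listed, and 1077 of the 1791 lay in EGLN3. The list ratio was 1.79 against 2.07 over all protein-coding genes of the chromosome, where 493 of 610 lay above 1. Of the list, 9 of 10 genes did. HIF1A was the highest of them, with 40 of 106 windows listed (37.7%) where 11.7% was predicted, a ratio of 3.23 (2.49 to 4.04). Its start window, with 52 CpG sites, was not listed. Of its 6 promoter windows, those with 25 CpG sites and with 1 site, the nearest 2 upstream, were listed. The HIF1A promoter printed above lies across the listed window with 25 sites and the unlisted start window. The bins of 100 kb that end at chr14:62000000 and chr14:62100000, before the gene, had ratios of 3.01 and 2.90, within the HIF1A interval. HIF1A stands just before a fall of 3.36-fold at 62.4 Mb, from 2.31 to 0.688. The fall is within SYT16, a synaptotagmin gene that had 71 of 602 windows listed (0.931).

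EGLN3 had 324 of 1077 windows listed (30.1%, ratio 1.76) over an annotated span of 538.548 kb, which other transcripts extend far beyond the canonical one. Over its canonical transcript the ratio was 2.14. Its start window, with 55 CpG sites, was not listed, and 2 of its 6 promoter windows, with 8 CpG sites each, were. The start windows of ERO1A (64 CpG sites), HSP90AA1 and PCK2 were not listed either. ERO1A, an endoplasmic reticulum oxidase, had 27 of 112 windows listed (1.91), and HSP90AA1, a chaperone of HIF1A, 45 of 118 (1.24). Over the canonical transcript of HSP90AA1, 6 of 13 windows were listed (2.01). PCK2, the mitochondrial form of phosphoenolpyruvate carboxykinase, had 11 of 33 (1.06).

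PGF, which encodes placental growth factor, differed from these at its start. Its start window, with 55 CpG sites, and all 6 promoter windows were listed, and 26 of 28 windows of the gene were (92.9%) where 49.9% was predicted. VASH1, which encodes the angiogenesis inhibitor vasohibin-1, had 37 of 43 windows listed (86.0%, ratio 2.02), and its start window, also with 55 CpG sites, and the rest of its promoter were listed. ALKBH1, a dioxygenase of the 2-oxoglutarate-dependent class, had 41 of 72 (2.70) and PYGL, liver glycogen phosphorylase, 60 of 173 (1.76). ANG, the gene of angiogenin, had 6 of 29 windows listed and a ratio of 0.866 (0.412 to 1.61), an interval that spans 1.

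The invasion, adhesion and EMT list had 1038 of 1336 windows listed (77.7%) and a ratio of 2.85. Against 493 of 610 protein-coding genes above 1 on the chromosome, all 11 genes of the list were. Most of these genes lie in the middle segment. NUMB, an inhibitor of Notch signalling, was the highest, with 263 of 367 windows (ratio 3.98). ACTN1, which encodes the actin cross-linker alpha-actinin-1, had 198 of 210 windows listed (94.3%), LTBP2, a latent TGF-beta binding protein family member, 214 of 228 (93.9%), and FBLN5 150 of 157 (95.5%). TGFB3, a transforming growth factor, had 42 of 50 (84.0%, ratio 2.57), and FERMT2, the integrin activator kindlin-2, 83 of 190 (2.96). LGALS3, galectin-3, had 24 of 42 (2.67). MMP14, a membrane-bound matrix metalloproteinase, and CDH24, a cadherin, lie in the proximal segment. MMP14 had 20 of 24 windows listed (1.63) and CDH24 10 of 20 (1.09). BMP4, a growth factor, had 11 of 18 (1.76). The lowest ratios of the list were thus found in CDH24 and MMP14, where predicted shares were 45.7% and 51.0%.

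Developmental transcription factors varied widely. The list had a ratio of 1.80, with 9 of 13 genes above 1 and values from 0 to 3.26. OTX2, a homeobox gene of the forebrain, had 0 of 34 windows listed where 25.6% was predicted, with an upper limit of 0.396 for the ratio, and all its windows were unique. GSC, the homeobox gene goosecoid, had all 4 of its windows listed. The homeobox genes SIX4 and SIX6 were lower, with 5 of 29 windows listed (0.878) and 1 of 7 (0.425). NKX2-1, a factor of lung and thyroid, had 4 of 10 (0.994), NKX2-8 4 of 6 (1.61), PAX9 22 of 43 (2.24) and FOXA1 5 of 13 (1.32). ESRRB, an orphan nuclear receptor, had 277 of 382 (2.31). BCL11B, a zinc finger factor of T cells and epithelia in the distal segment, had 92 of 206 (1.16).

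Among leucine zipper factors and related genes, with a list ratio of 1.96, FOS, JDP2 and BATF lie within 0.3 Mb of each other and were all dense. FOS, an AP-1 subunit, had 6 of 7 windows listed, JDP2, a dimerisation partner that represses AP-1, 83 of 93 (2.63), and BATF, a lymphoid AP-1 factor, 35 of 49 (2.84). MAX, the partner of MYC, had 87 of 193 (1.89), or 14 of 54 (1.38) over its canonical transcript. NRL and NFATC4, in the proximal segment, were at 1.08 and 1.22. NRL is a leucine zipper factor of rods and NFATC4 is no AP-1 member.

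Sterol and lipid genes had a list ratio of 2.24. SPTLC2, a subunit of the enzyme that begins sphingolipid synthesis, had 154 of 221 windows listed (3.44), and NPC2, which moves cholesterol out of lysosomes, 23 of 36 (3.40). ERG28, a scaffold of sterol synthesis, had 8 of 22 (1.90), LRP10, a lipoprotein receptor family member, 10 of 20 (1.16) and DEGS2, a sphingolipid desaturase and hydroxylase, 26 of 31 (1.56). CYP46A1, the cholesterol 24-hydroxylase, in the distal segment, had 17 of 86 (0.686, 0.441 to 1.02). The acyl-CoA thioesterase genes stand in a row and are near copies of each other: ACOT2 had 13 of 16 windows listed, ACOT4 7 of 8, ACOT6 13 of 18 and ACOT1 1 of 13. Unique windows made up 7.69% of ACOT1, 18.8% of ACOT2, 50.0% of ACOT4 and 72.2% of ACOT6, so their values are uncertain.

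The chromosome had 493 of 610 protein-coding genes above 1 and a ratio of 2.07 over all of them. In the list of chromatin and DNA repair, at a ratio of 2.10, all 15 genes lay above 1. DICER1 was the highest of them, with 109 of 144 windows (75.7%) where 13.6% was predicted, a ratio of 5.55 (4.99 to 6.01). TDP1 followed at 4.12 and MLH3, a mismatch repair gene, had 45 of 75 (3.15). RAD51B, a homologous recombination gene, had 617 of 1821 (2.10), out of 3267 windows for the whole list. YY1, a zinc finger regulator, had 45 of 89 (1.99), and BAZ1A, a remodeller subunit, 81 of 246 (1.93). PRMT5, an arginine methyltransferase, had 10 of 18 (1.83), APEX1, the abasic site endonuclease, 3 of 5 (1.93), and ARID4A, a partner of the retinoblastoma protein, 27 of 151 (1.43). MTA1, a subunit of the NuRD complex, had 91 of 102 (89.2%) and XRCC3, a recombination gene, 33 of 36 (91.7%), where more than 56% was predicted for each. CHD8, a remodeller, was at 1.29, SUPT16H, a histone chaperone, at 1.25, PARP2, a poly(ADP-ribose) polymerase, at 1.19 and SETD3, a histidine methyltransferase of actin, at 1.11. Of the 15 start windows, most of them rich in CpG, 1 was listed, where 27.8% of start windows with 20 or more CpG sites were on the chromosome.

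The SERPINA cluster of protease inhibitors, past 94.7 Mb, had the highest ratio of the lists, although with a prediction from GC content alone it was at 2.62, below the invasion list at 2.90. It had 248 of 314 windows listed (79.0%) where 27.1% was predicted, at a ratio of 2.91 (2.73 to 3.06). SERPINA4 lies within SERPINA5, so its windows were counted for both genes. The 1 Mb regions that hold the cluster were at 3.26 (80.2% of windows listed) and 3.09 (86.25%). The cluster thus did not stand above its surroundings. Its 10 genes had ratios from 2.25 for SERPINA3 (17 of 24 windows), antichymotrypsin, to 4.26 for SERPINA11 (16 of 20). SERPINA1, alpha-1 antitrypsin, had 27 of 28 windows listed (96.4%), and SERPINA6, the corticosteroid binding globulin, 29 of 38. The start windows of all 10 genes, with 1 to 14 CpG sites each, were listed, where 50.0% of the 146 start windows with fewer than 20 CpG sites were on the chromosome. That share is for the whole chromosome and not for the dense region around the cluster. The expression of these genes in FADU cells was not measured here.

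The RNase A family and the olfactory receptors, both in the proximal segment, lay lower. The 13 RNase genes had 43 of 164 windows listed and a ratio of 1.05 (0.801 to 1.33). ANG largely overlaps RNASE4, and RNASE12 lies within RNASE11, so shared windows were counted for each gene. RNASE7, an antimicrobial ribonuclease of epithelia, had all 4 of its windows listed and RNASE1, the pancreatic form, all 3, while RNASE2, RNASE3, RNASE6, RNASE12 and RNASE13 had none of 2 to 4. RNASE9 had 5 of 9 and RNASE11 10 of 54. The 24 olfactory receptor genes had 43 of 472 windows listed, at a ratio of 0.794 (0.596 to 1.05). OR4N2, the longest of them, had 27 of 223, with 39.0% of windows unique, or 12 of 53 (2.39) over its canonical transcript. OR4Q3 and OR4M1 lie within OR4N2, so their windows were counted for OR4N2 as well.

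The 24 genes of 300 kb or more had 6556 of 26745 windows listed, at a ratio of 1.86, and 16 of them lay above 1. UNC79, a subunit of a sodium leak channel, reached 438 of 749 (4.18), SIPA1L1 3.94, SYNE2 3.89 and FOXN3 3.48. KCNH5, a potassium channel gene of like span that lies proximal to the rise at 63.7 Mb, had 62 of 806 (0.782). MDGA2, a neural adhesion gene, had 119 of 1671 (0.838), PRKD1, a protein kinase D, 99 of 1231 (0.784), and NUBPL, an assembly factor of respiratory complex I, 68 of 743 (0.720). GPHN, the scaffold gephyrin, had 157 of 1349 (1.18) and NPAS3, a bHLH-PAS factor, 253 of 1773 (1.14). CEP128, a centriole protein gene past NRXN3, had 299 of 965 (3.02), and PRKCH, a protein kinase C just before HIF1A, 316 of 726 (2.38).

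**Figure D3:**
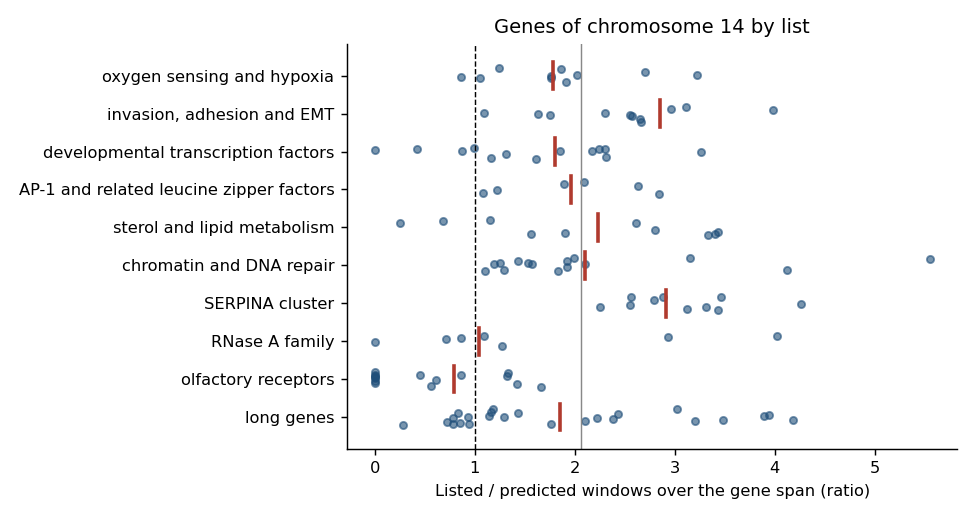
The ratio of listed to predicted windows over each gene span (x axis) for the genes of each list (rows). Points are genes with 4 or more windows, red bars are the ratio of the whole list, the dashed line is 1 and the grey line is the ratio over all protein-coding genes of the chromosome, 2.07. List ratios run from 0.794 for olfactory receptors to 2.91 for the SERPINA cluster.

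Among genes with 50 or more windows, the highest ratios were those of PAPOLA, TTC8, DICER1, RPS6KA5 and TRIP11, all between 89 and 98 Mb. PAPOLA had 94 of 131 windows listed (71.8%) where 11.9% was predicted, at a ratio of 6.04 (5.34 to 6.62). RPS6KA5, the kinase MSK1, had 309 of 426 (5.27) and TRIP11, a Golgi tether, 111 of 149 (5.26). Predicted shares of these genes were low, from 9.79% to 14.2%, and their listed shares lay below those around them. TTC8 had 57.9% listed against 77.8% in its dense stretch, PAPOLA 71.8% against 79.6%, DICER1 75.7% against 87.0% and TRIP11 74.5% against 77.8%. RPS6KA5 had 72.5% against 88.95% in the region from 91 to 92 Mb. The start windows of PAPOLA (51 CpG sites), TTC8, DICER1 and RPS6KA5 were not listed and that of TRIP11 was. The lowest were POTEG and POTEM, primate-specific genes of the POTE ankyrin family, with 0 of 64 and 0 of 72 windows listed and no unique window in either. NGDN, a translation regulator gene, followed with 3 of 80 windows (0.195), then NRXN3, and MYH6, cardiac alpha-myosin, with 7 of 53 (0.307). These genes were ranked by the listing itself, so their values describe its range.

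The longest run of consecutive listed windows held 280 windows (140 kb, chr14:93385001-93525000) over CHGA, which encodes chromogranin A, and part of ITPK1, an inositol phosphate kinase gene. CHGA had 24 of 24 windows listed, and ITPK1 354 of 358. The next 4 runs, of 128 to 140 windows, covered parts of PRIMA1, an anchor of acetylcholinesterase, of ASB2, a ubiquitin ligase subunit, with FAM181A and CCDC197, of ACTN1, and of CCDC88C. Of 16146 runs on the chromosome, 6192 were a single window and 269 had 20 or more windows, with a median of 2. Of the 5 longest stretches without a listed window, 4 lay beside the centromere, over OR11H12, POTEM and POTEG or no gene, with at most 1.69% of windows unique. The other, 136.5 kb from chr14:25918501-26055000, held 273 windows, 90.8% of them unique, and no protein-coding gene.

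The 3 loci left out had lower ratios than the rest of the chromosome. The T cell receptor locus had 14.8% of windows listed (ratio 1.12), the DLK1-MEG3 locus 36.9% (1.03) and the immunoglobulin heavy chain locus 8.54% (0.329). The T cell receptor locus lay slightly above the proximal segment around it (1.06). In the distal segment (1.19) the DLK1-MEG3 locus lay slightly below and the immunoglobulin locus far below. With only 1 table for 4 libraries, no spread between replicates could be given for any of these values, and since the rule that kept windows is not given, a window outside the table is not shown to lack reads.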

How the data were processed

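Genomic DNA of 4 FADU libraries was enriched for a modified cytosine and sequenced in 50 bp single-end reads. Bowtie 0.12.7 was used by the authors for alignment to hg19; they kept reads that were unique and monoclonal, and counted them in 500 bp windows with MEDIPS. The deposited table holds the window positions, the unit used here, and 4 columns of read values that were not used because their names match no sample. The rule by which the authors kept windows is not given in the sources used here beyond the tag min20 in the name of the table, which they do not explain, and the depth of each library was not analysed here. Windows with the same grid were cut from GRCh37, and CpG sites and GC content were counted with Python 3.11.15, NumPy 2.4.6 and pandas 2.3.3. The predicted share used CpG number, with 40 or more as 1 class, and GC content in steps of 25 bases. Uniqueness was searched for exact matches of 5 sequences per window on both strands, in all windows of chromosome 14 and 3000 of each other autosome. Genes came from GENCODE 44 lifted to GRCh37. The named genes were the members of fixed lists, the 5 highest and 5 lowest genes with 50 or more windows, and genes in the 5 longest runs and stretches; others were named after their values were seen. The members and lists were chosen with earlier results of these data known. The ratio was tested on simulated data with known factors, with windows drawn independently and the prediction taken from autosomes other than 14. The main setting, with a prediction from all autosomes, and the clustering of real windows were not simulated. Alternatives changed the prediction, the span, the region size and the promoter length. Some genes and sequences are not reported here.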

Additional observations from a re-analysis of the deposited data

How the results depend on the processing

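The ratio of chromosome 14 stayed above 1 in each alternative run. It was 1.78 with no prediction, 1.88 with a prediction from the other autosomes, 1.79 with the 3 loci included, 1.97 in windows of unique sequence and 1.62 in windows without an annotated gene. Sampled unique windows were also above the whole on chromosome 22 (1.51 against 1.35) and chromosome 8 (1.42 against 1.30). Outside genes and their flanks the other autosomes were at 0.794, below their 0.974. Leaving out 10 Mb of chromosome 14 at a time gave 1.85, 1.92, 1.88, 1.90, 1.80, 1.74, 1.80, 1.66 and 1.92 for the blocks that moved its ratio, lowest without 90 to 100 Mb. Alternatives chosen after seeing the data left out the longest dense stretch (1.79) and all 8 dense stretches (1.62). The highest region was 3.66 with CpG number alone, 3.46 with GC content alone, 4.70 with no prediction, 3.44 with the prediction from other autosomes, 2.75 in regions of 10 Mb and 3.83 in regions of 1 Mb. The lowest was 0.296 with no prediction and 0.233 in regions of 1 Mb. Just downstream of start sites the ratio was 0.842 with GC content alone, 1.91 with no prediction and 1.10 from the 5' end of the gene, so its side of 1 depends on the setting. The intronic share was 52.6% with protein-coding genes only. With no prediction, list ratios were 1.96 (hypoxia), 4.42 (invasion), 3.34 (developmental factors), 3.22 (leucine zipper), 3.28 (sterol), 2.26 (chromatin), 4.49 (SERPINA), 1.49 (RNase A), 0.518 (olfactory) and 1.39 (long genes). With CpG number alone they were 3.20 (invasion), 2.02 (developmental factors), 2.30 (leucine zipper), 3.84 (SERPINA) and 1.72 (long genes), and with GC content alone 2.62 (SERPINA) and 1.80 (long genes). Long genes were at 1.92 with the prediction from other autosomes. With the span of the canonical transcript, also chosen after seeing the data, the hypoxia list was at 2.19 and long genes at 1.80. The cause of these moves was not tested. No paired analysis was possible because each group has 1 library and the columns carry no group. The depth of the libraries was not analysed here.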
